A study of Zea mays with 6 samples.

Results

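The stem libraries of the maize hybrid ZD619 were compared between drought and control plants, gene by gene. The deposited stem table lists 109715 gene identifiers, and 25585 of them averaged 1 FPKM or more over its pair of libraries and were compared. FPKM is a count of sequenced fragments scaled by the authors' programs for gene length and library size. The drought plants were short of water and the control plants were watered, in both cases seedlings of ZD619 raised in pots and labelled as being at the 2 to 3 leaf stage. The methods of the study place the withholding of water later, in older seedlings, so the label may not give the stage at sampling. The whole series holds 6 libraries, a drought and a control library for each of leaf, stem and root, and only the 2 stem libraries entered the comparison.

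Each side of the comparison was 1 library. The methods of the study describe the RNA as taken from several plants and mention replications of each treatment, and whether a library here joins replications or is one of them is not stated. No value therefore has an error between replicates, and no test was made. A gene is written to have risen or fallen where its change was at least 2-fold, measured as log2 of (drought + 1 FPKM)/(control + 1 FPKM), so that a log2 change of 1 is a doubling on that scale and the changes of low genes are understated. In such bulk samples, more cells of a type and more RNA per cell cannot be told apart. Read counts per gene are not part of the table, so the number of reads behind each value is unknown. The supplement of the study gives read totals per library, which were not used here.

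Plant stems carry their load on cell walls. Cellulose is spun at the plasma membrane by complexes of cellulose synthase (CesA) proteins, which travel along cortical microtubules, and in the secondary walls of vessels and fibres it is embedded in lignin, a polymer made from phenylalanine by the phenylpropanoid pathway. A side branch of that pathway, opened by chalcone synthase, leads to flavonoids and anthocyanins. Water loss is known to raise abscisic acid, to close stomata and to slow growth, and aquaporins set how easily water crosses membranes. In young maize seedlings much of the upright axis is made of rolled leaf sheaths around a short true stem.

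The markers fixed for the tissue labels were read first, with levels set side by side over 3 tables that were normalized separately. Photosystem and light-harvesting genes were high in stem. The 13 of them had a median of 1279.8 FPKM in drought and 1619 FPKM in control, against 206 and 592 FPKM in the leaf drought and leaf control libraries. The 17 C4 and Calvin cycle identifiers were divided. Their median was 329 FPKM in stem drought and 330 FPKM in stem control, against 151 and 268 FPKM in leaf drought and leaf control. Their sum was 11008 FPKM in stem drought and 11864 FPKM in stem control, against 9556 and 22747 FPKM in leaf drought and leaf control. Of 10 KNOX identifiers, homeobox genes that mark shoot meristems and internodes, 7 were listed at 0 in stem drought and 6 in stem control. The KNOX genes kn1, lg3 and gnarley1 were listed at 0 in both stem libraries, whereas lg3 had 11.8 FPKM in root drought and 19.4 FPKM in root control. Only knox6 (24.1 FPKM in drought and 23.9 FPKM in control) and knox7 (15.3 FPKM in drought and 11.4 FPKM in control) were above 1 FPKM in stem. Of the root markers, rtcs was listed at 0 in both stem libraries, and the root hair gene rth3 had 4.72 FPKM in drought and 2.20 FPKM in control. Secondary wall cellulose synthases, markers of vascular tissue, were high, and 18 of 22 kernel identifiers were at 0 in drought and 20 of 22 in control. The meristem markers therefore go against the label, and "stem" is used below only as the name of these 2 libraries.

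In stem, 4832 of the compared genes differed at least 2-fold between drought and control. There were 2428 genes that rose (9.49% of those compared) and 2404 that fell (9.4%), so that 50.2% of the changed genes rose. The median change over all 25585 genes was 0.06 on the log2 scale, and 61.0% of them lay within 1.5-fold of no change. Large falls outnumbered large rises. At least 8-fold changes counted 77 rises and 216 falls, and at least 4-fold changes 354 rises and 650 falls. The genes that rose held 20.9% of the summed FPKM of the drought library and 6.59% of that of the control library, while those that fell held 3.56% in drought and 16.4% in control.

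The share of rises varied with level. From 1 to 3 FPKM 8.33% of genes rose and 9.60% fell, from 10 to 30 FPKM 7.98% rose and 8.27% fell, and from 100 to 1000 FPKM 19.2% rose and 10.7% fell, with a median change of 0.33. Above 1000 FPKM, where only 60 genes lay, 6 rose and 5 fell.

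**Figure D1:**
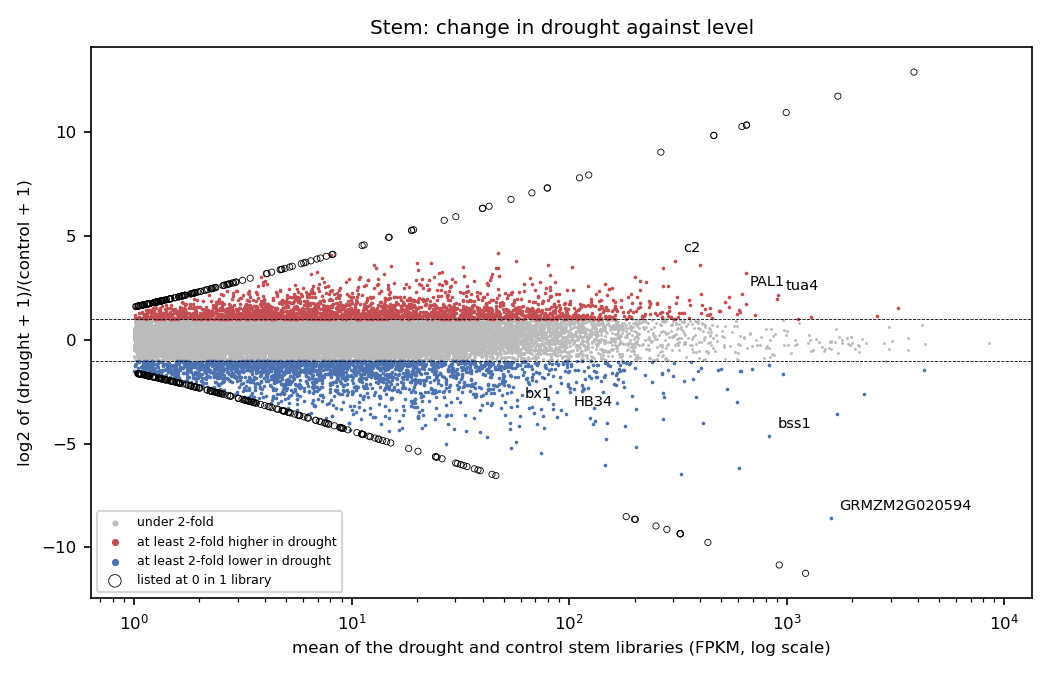
Each point is 1 of the 25585 compared genes in stem, with its mean over the drought and control libraries (FPKM, log scale) on the x axis and its log2 of (drought + 1)/(control + 1) on the y axis; dashed lines mark 2-fold. Red points rose, blue points fell, and open circles are genes listed at 0 in 1 library, which form the outer edges; c2 stands at 3.82 and bss1 at -4.66.

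The outer edges of this plot were made by identifiers with no name and no second measurement. All of the 20 largest rises were listed at 0 in control, and 17 of the 20 largest falls were listed at 0 in drought. The 3 largest rises were GRMZM2G580827 (listed at 7684 FPKM in drought), GRMZM2G565546 (3436 FPKM) and GRMZM2G561630 (1989 FPKM), each listed at 0 in control. The 3 largest falls were AC214039.3_FG005 (listed at 2441 FPKM in control), GRMZM2G589517 (1848 FPKM) and GRMZM2G575110 (868 FPKM), each listed at 0 in drought. Because an exact 0 in such a table can be a failed estimate, no fold change is given for them. Of the 339 changed genes listed at 0 in 1 library, 2 rises have a name, and 10 share both of their values with another identifier, among them 4 falls at 648 FPKM in control. Of the same 339 genes, 41 rises and 59 falls were also listed at 0 in every leaf and root library. Among the 25246 genes above 0 in both stem libraries, 2285 rose and 2208 fell.

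With the genes at 0 set aside, the largest fall was that of GRMZM2G020594, at 7.24 FPKM in drought, against 3183 FPKM in control (log2 change -8.59), and the largest rise was that of GRMZM2G023325, at 90.5 FPKM in drought, against 4.10 FPKM in control (4.17). Neither carries a name in the reference, and both were singled out after their values were seen. The leaf libraries gave GRMZM2G020594 at 8.21 FPKM in drought and 9.42 FPKM in control, and the root libraries gave it at 5.48 FPKM in drought and 8.37 FPKM in control, so that its high value stood in stem control alone among the 6 libraries.

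Gene names were available for 2026 of the compared genes. Among these, 188 rose (9.28%) and 221 fell (10.9%), close to the shares over all genes. Each stem count of rises and falls in a list below stands beside 9.49% and 9.4% of all compared genes. Small lists can lie near these shares with only a few changed genes. The 20 largest named falls and all but 1 of the 20 largest named rises are described with the pathway each belongs to, from the wall and its precursors to transport and signalling.

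The cellulose lists had the highest medians of all lists with at least 3 compared genes. All 4 compared members of the secondary wall list rose, with a median change of 1.82. CesA12 (GRMZM2G142898), a secondary wall cellulose synthase, was at 148 FPKM in drought, against 31.1 FPKM in control (log2 change 2.21). The COBRA-like gene bk2 (GRMZM2G109326), whose loss gives the brittle stalk phenotype, was at 255 FPKM in drought, against 70.7 FPKM in control (1.84). The synthase cesa10 (GRMZM2G445905) was at 197 FPKM in drought, against 55.7 FPKM in control (1.80), and CesA13 (GRMZM2G002523) at 11.1 FPKM in drought, against 2.60 FPKM in control (1.75). The other 2 members, a pair of identifiers named cesa11, lay under 1 FPKM in both libraries and were not compared. The 4 changes were thus of like size, between 1.75 and 2.21, although the levels differed widely.

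Primary wall cellulose synthases moved in the same direction, with 7 of 10 compared members rising, none falling and a median change of 1.40. CesA-9 (GRMZM2G018241) was at 36.5 FPKM in drought, against 5.09 FPKM in control (2.62), the widest change of the group. Next came CesA-5, at 43.5 FPKM in drought, against 13.1 FPKM in control (1.66), and CesA-4, at 93.6 FPKM in drought, against 29.4 FPKM in control (1.64). The most abundant member, CesA-7, was at 222 FPKM in drought, against 72.8 FPKM in control (1.60). CesA-3 alone did not lie higher in drought, with 12.6 FPKM in drought and 13.5 FPKM in control (-0.09). A second identifier named CesA-9 (GRMZM2G150404) was low, at 1.85 FPKM in drought and 0.528 FPKM in control, and CesA-6 was at 106 FPKM in drought and 54.9 FPKM in control (0.94), short of 2-fold.

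Tubulins, the subunits of the microtubules along which cellulose synthases travel, held 5 further rises. Among 15 compared tubulin, actin and actin-binding genes 5 rose and 1 fell. The alpha-tubulin gene tua4 (GRMZM2G152466) was at 1445 FPKM in drought, against 364 FPKM in control (1.99), and had the highest FPKM of the list. The beta-tubulins tub6, at 215 FPKM in drought, against 58.4 FPKM in control (1.86), and tub5, at 116 FPKM in drought, against 33.8 FPKM in control (1.75), were next. The direction was not shared by the whole list. ACT-1, an actin, was at 14.3 FPKM in drought, against 32.4 FPKM in control (-1.12), the only fall of the list, while the alpha-tubulin tua6 was at 24.9 FPKM in drought and 47.98 FPKM in control (-0.92) and the actin-depolymerizing factor ABP3 at 325 FPKM in drought and 465 FPKM in control (-0.52). The named rises outside the lists included KIN6 (GRMZM2G114861), a kinesin-type microtubule motor, at 33.4 FPKM in drought, against 5.98 FPKM in control (2.30), and an identifier named Profilin, which binds actin monomers, at 10.9 FPKM in drought, against 1.87 FPKM in control (2.05).

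Genes of wall loosening rose less. Of 12 compared expansins and xyloglucan-modifying enzymes 3 rose and none fell, with a median of 0.47, and 11 lay above 0. The 3 were xth1, at 129 FPKM in drought, against 41.1 FPKM in control (1.63), and the beta-expansins expB2, at 8.64 FPKM in drought, against 2.81 FPKM in control (1.34), and expB8, at 21.2 FPKM in drought, against 7.81 FPKM in control (1.33).

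The lignin route from phenylalanine to monolignols was the second large group of rises. Of 14 compared members 8 rose and 1 fell, with a median of 1.20, and the rises included its entry enzyme and its last reductions. PAL1 (GRMZM2G074604), phenylalanine ammonia-lyase and the entry to the pathway, was at 1019 FPKM in drought, against 222 FPKM in control (2.19). CCOAOMT2, a caffeoyl-CoA O-methyltransferase that methylates lignin precursors, was at 139.6 FPKM in drought, against 37.7 FPKM in control (1.86). A further 5 rises, named here although the rule for named genes does not reach them, lay between 1.01 and 1.78. They were CAOMT, a caffeic acid O-methyltransferase, BM1, the cinnamyl alcohol dehydrogenase of the brown midrib1 locus, the cinnamoyl-CoA reductases ccr2 and CCR, and ccoaomt1.

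The fall was a laccase, an enzyme that oxidizes monolignols in the wall. LAC1 (GRMZM5G842071) was at 14.7 FPKM in drought, against 47.4 FPKM in control (-1.63), and 2 further laccases stayed short of 2-fold. A second identifier named Lac1 (GRMZM2G146152) was at 1.06 FPKM in drought and 2.12 FPKM in control (-0.60), and lac5 at 3.09 FPKM in drought and 4.60 FPKM in control (-0.45). The other 4 laccase identifiers averaged under 1 FPKM and were not compared.

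**Figure D2:**
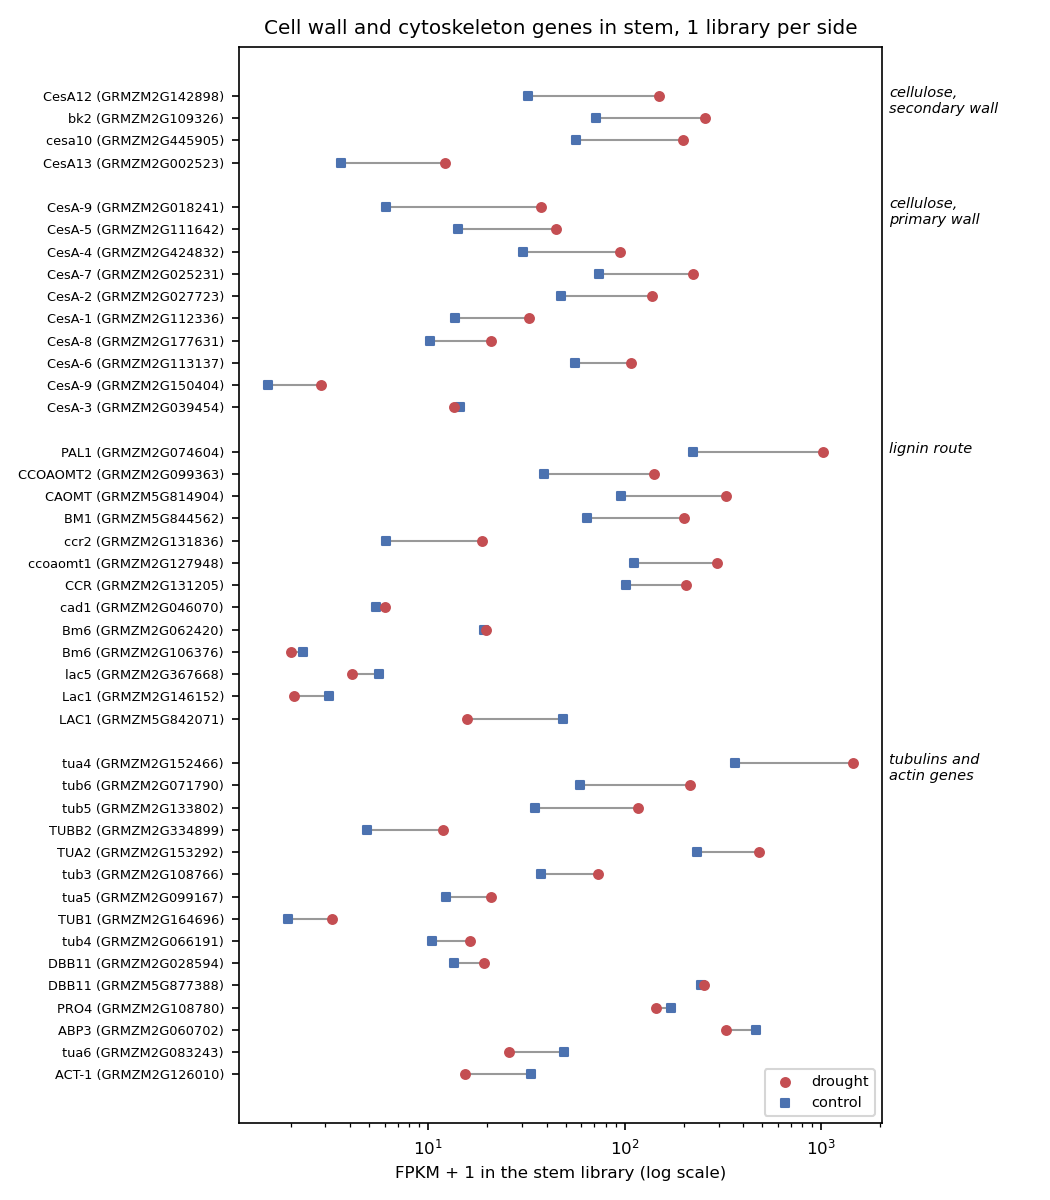
FPKM + 1 (log scale, x axis) of the compared members of the lists for cellulose in secondary and primary walls, the lignin route (all but 1), and tubulins and actin genes, with red circles for the drought library and blue squares for the control library. The drought point lies to the right for all 4 secondary wall genes and 9 of 10 primary wall genes, and to the left for LAC1, lac5 and ACT-1.

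In flavonoid synthesis the first step rose and the later ones did not. The chalcone synthase gene c2 (GRMZM2G422750) was at 571 FPKM in drought, against 39.4 FPKM in control, and its log2 change of 3.82 was the largest rise of any named gene above 0 in both libraries. Its duplicate whp1 (GRMZM2G151227, listed as whp) was at 77.2 FPKM in drought, against 9.63 FPKM in control (2.88). As near-identical copies, c2 and whp1 can share reads, so the split between them is uncertain. Chalcone isomerase, CHI, was at 281 FPKM in drought and 154 FPKM in control (0.87), short of 2-fold. The anthocyanin glucosyltransferase gene bronze was at 1.69 FPKM in drought and 1.98 FPKM in control (-0.15), bronze-2, a glutathione transferase that helps to load anthocyanin into the vacuole, at 2.96 FPKM in drought and 4.74 FPKM in control (-0.54), and R-S, a bHLH regulator of the pathway, at 0.883 FPKM in drought, against 3.38 FPKM in control (-1.22), a fall. The list of 10 compared genes thus had 2 rises, 1 fall and a median of 0.02.

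Leaf and root gave other values for the same wall genes. Of the primary wall cellulose synthases with a mean of at least 1 FPKM in the tissue, 0 of 9 rose and 5 fell in leaf (median -1.18), and 4 of 10 rose and none fell in root (0.64). The lignin list had 1 rise and 4 falls among 11 genes in leaf (-0.82), and 2 rises and no fall among 13 in root (0.12). CesA12 was at 0.114 FPKM in drought and 4.11 FPKM in control in leaf and 31.96 FPKM in drought and 23.2 FPKM in control in root. The chalcone synthase gene c2, which rose in stem, was at 3.24 FPKM in drought, against 34.4 FPKM in control in leaf (-3.06) and at 8.42 FPKM in drought and 14.8 FPKM in control in root (-0.75). With 1 library per side in every tissue, the difference between tissues was not tested.

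Several named regulators of walls and organ shape stood among the changed genes. ANAC010 (GRMZM2G058518), named after a NAC transcription factor that in Arabidopsis acts in secondary wall formation, was at 39.0 FPKM in drought, against 6.23 FPKM in control (2.47). OFP32, of the OVATE family of growth regulators, was at 14.7 FPKM in drought, against 2.63 FPKM in control (2.11). In the MYB family 3 of 36 compared genes rose and 6 fell. MYB167 was at 27.6 FPKM in drought, against 8.34 FPKM in control (1.62), Myb20 at 13.0 FPKM in drought, against 3.88 FPKM in control (1.52) and Myb14 at 5.60 FPKM in drought, against 2.15 FPKM in control (1.07). The widest falls of the family were those of MYBR87 (-1.60) and MYBR41 (-1.58). Next came the maize factor myb42, known to repress lignin genes, at 2.40 FPKM in drought, against 8.85 FPKM in control (-1.54). Whether its fall bears on the lignin genes was not tested. The NAC list, which does not hold ANAC010, had 2 rises and 2 falls among 13 compared genes. Its changes ran from NAC63, at 14.7 FPKM in drought, against 5.50 FPKM in control (1.28), to NAC1 (GRMZM2G014653), at 2.29 FPKM in drought, against 10.01 FPKM in control (-1.74).

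Ribosomal protein genes shifted together by a smaller step. Of 31 compared members 30 lay above 0 and their median change was 0.78, but only 4 passed 2-fold and none fell. These were L29, at 364 FPKM in drought, against 169 FPKM in control (1.10), rps6 (1.09), rps4 (1.08) and rps28 (1.01). The exception in sign was arpp2b, an acidic ribosomal protein, at 226 FPKM in drought and 283 FPKM in control (-0.32). In root the same 31 genes had 27 rises and a median of 2.01, and in leaf 1 rise and a median of -0.03. Cell division genes stayed near their control level in stem. None of 14 compared genes for replication and the cell cycle rose or fell, and their median was 0.01. The replication clamp gene PCNA was at 3.59 FPKM in drought and 7.24 FPKM in control (-0.84), the lowest change of that list. Among 11 compared histone genes none rose, and the linker histone hon101 fell, at 20.8 FPKM in drought, against 67.8 FPKM in control (-1.66).

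Photosynthesis genes stayed near their control level, although no list had a higher summed FPKM in these libraries. Of 13 photosystem and light-harvesting genes 1 rose and none fell, with a median of -0.12. The rise was OEE3 (GRMZM2G021617), a subunit of the oxygen-evolving complex, at 16.7 FPKM in drought, against 6.32 FPKM in control (1.28). Cab-m7, the most abundant chlorophyll-binding gene, was at 4034 FPKM in drought and 4613 FPKM in control (-0.19). In leaf the same list had 7 falls among 12 genes and a median of -1.99. The C4 and Calvin cycle genes gave 1 rise and 3 falls among 16. Malic enzyme me2 rose, at 109 FPKM in drought, against 52.1 FPKM in control (1.06), and ME1, the bundle sheath malic enzyme of C4 photosynthesis, was at 766 FPKM in drought and 403 FPKM in control (0.92). The PEP carboxykinase gene pck2 fell, at 10.4 FPKM in drought, against 50.4 FPKM in control (-2.18), and so did the cytosolic pyruvate phosphate dikinase CYPPDKZM2 (-1.49) and rca3 (-1.87). PPCK1 (GRMZM2G178074), the kinase that activates PEP carboxylase, was among the 20 largest named falls, at 0.544 FPKM in drought, against 13.1 FPKM in control (-3.19).

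**Figure D3:**
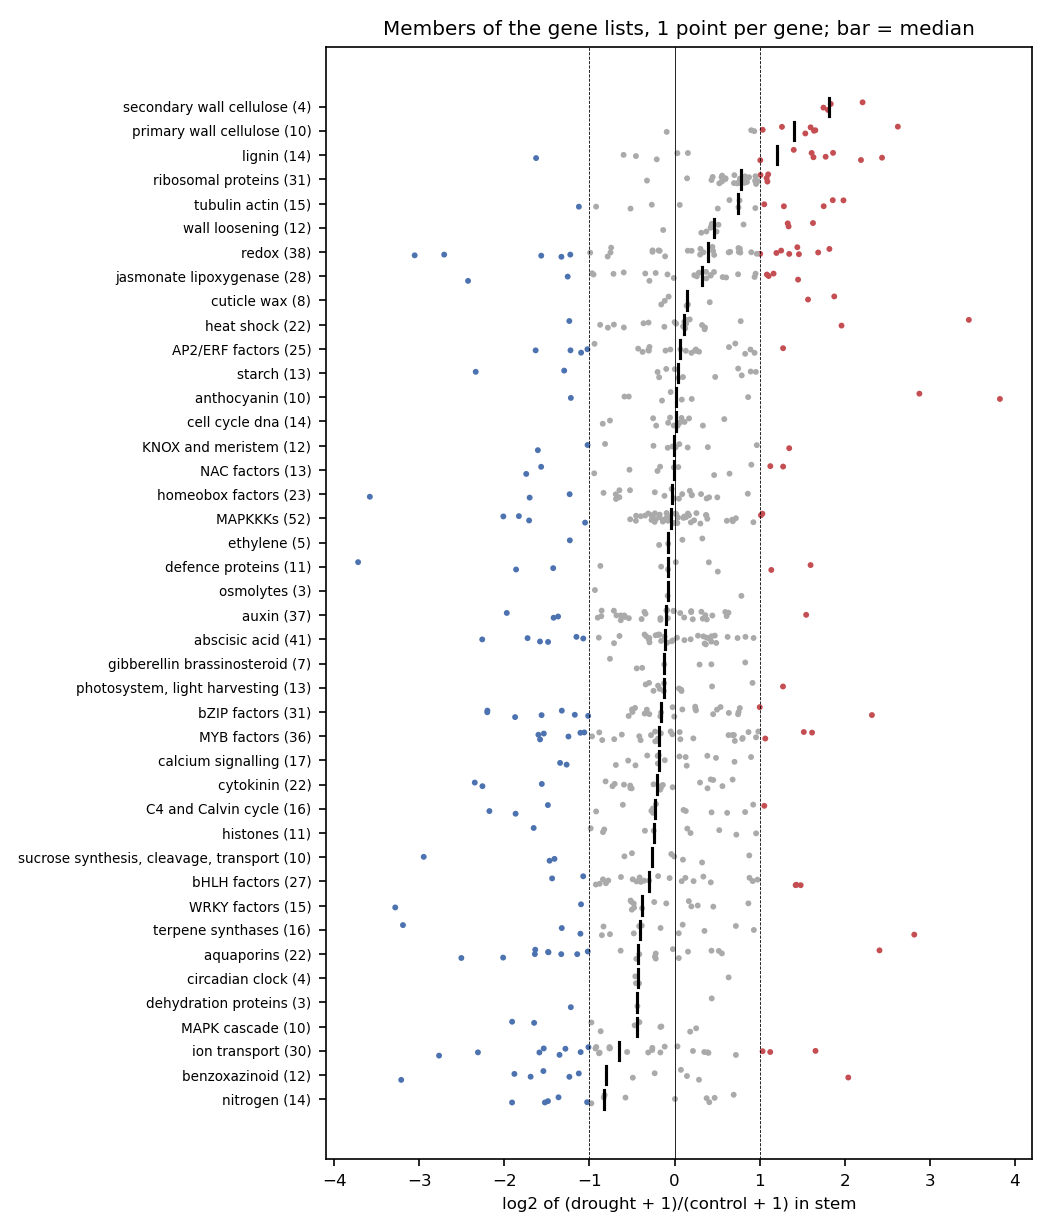
Log2 of (drought + 1)/(control + 1) in stem (x axis) for every compared member of each list with at least 3 of them, 1 point per gene, red where it rose and blue where it fell, with the list's median as a black bar and the number of genes in parentheses. The secondary wall list stands highest at a median of 1.82 and the nitrogen list lowest at -0.83, and most medians lie near the 0.06 of all compared genes.

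Among the named falls were genes of defence chemistry. Benzoxazinoids are the indole-derived toxins of young maize. In the list drawn up for their synthesis and release, 6 of 12 compared genes fell and 1 rose, with a median of -0.81. That list also counts TSA, Igl and igl1, indole-forming genes that are not bx genes, and Igl is 1 of its falls. The gene bx1 (GRMZM2G085381), which splits indole-3-glycerol phosphate into free indole and so commits it to the pathway, was at 10.4 FPKM in drought, against 104 FPKM in control (-3.21). Igl (GRMZM2G046163), an indole-3-glycerol phosphate lyase of the same reaction, was at 4.41 FPKM in drought, against 18.9 FPKM in control (-1.88). A second identifier of like name, igl1 (GRMZM2G046191), outside the rule, was at 14.9 FPKM in drought and 14.1 FPKM in control (0.08). BX3, a cytochrome P450 that oxidizes the indole ring and the most abundant gene of the list in control, was at 105 FPKM in drought, against 341 FPKM in control (-1.69). The remaining falls, the P450 genes bx2, BX4 and BX5, lay between -1.54 and -1.12. The P450 steps bx2 to BX5 thus all fell together with bx1. The glucosyltransferases that close the pathway did not, with bx8 at 22.2 FPKM in drought and 26.3 FPKM in control (-0.23) and bx9 at 118 FPKM in drought and 107 FPKM in control (0.15); the falls outside the rule and this pair are named after their values were seen. The only rise was glu2 (GRMZM2G008247), a beta-glucosidase that frees the active toxin from its glucoside, at 506 FPKM in drought, against 122 FPKM in control (2.04).

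Other defence genes were divided. The thaumatin-like PR-5 (GRMZM2G402631) was at 0.914 FPKM in drought, against 24.2 FPKM in control (-3.72), PR-1 at 0.125 FPKM in drought, against 3.09 FPKM in control (-1.86), and a chitinase (GRMZM2G453805) at 16.1 FPKM in drought, against 44.8 FPKM in control (-1.43). The beta-glucanase glucA (GRMZM2G125032) was at 128 FPKM in drought, against 17.98 FPKM in control (2.77), and the chitinase chiA (GRMZM2G051943) at 45.4 FPKM in drought, against 8.52 FPKM in control (2.29), both among the 20 largest named rises. The ribosome-inactivating protein RIP was at 91.2 FPKM in drought, against 29.4 FPKM in control (1.60), and the glucanase exg1 at 247 FPKM in drought, against 112 FPKM in control (1.14). The defence protein list does not hold glucA and chiA, and its 11 compared members had 2 rises (RIP and exg1) and 3 falls.

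Terpene synthases were divided too. CPPS2 (GRMZM2G044481), also named an2, makes the ent-copalyl diphosphate from which maize builds antimicrobial diterpenoids, and it was at 7.77 FPKM in drought, against 0.244 FPKM in control (2.82). The terpene synthase tps26 (GRMZM2G030583) was at 0.525 FPKM in drought, against 12.9 FPKM in control (-3.19), and CYP92C5 (GRMZM2G102079), a P450 that finishes volatile homoterpenes in maize, was at 2.37 FPKM in drought, against 45.8 FPKM in control (-3.79). Over 16 compared terpene synthases 1 rose and 3 fell. In the lipoxygenase and jasmonate list 4 of 28 rose and 2 fell. TIFY1, a repressor-type protein of the jasmonate pathway, was at 3.99 FPKM in drought, against 0.824 FPKM in control (1.45), the allene oxide cyclase aoc1 at 54.2 FPKM in drought, against 23.7 FPKM in control (1.16) and TIFY28 at 20.2 FPKM in drought, against 8.84 FPKM in control (1.11). The oxophytodienoate reductase opr6 was at 6.88 FPKM in drought, against 41.4 FPKM in control (-2.43). Lipoxygenase lox1, the list's highest rise in FPKM, is named outside the rule, at 1759 FPKM in drought, against 828 FPKM in control (1.09).

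Enzymes of redox balance changed in both directions, with 8 rises and 5 falls among 38. The rises included glutathione transferases of low level, such as gst11, at 4.26 FPKM in drought, against 0.489 FPKM in control (1.82), and gst12, at 2.79 FPKM in drought, against 0.176 FPKM in control (1.69). The most abundant member, gst1, was at 1271 FPKM in drought and 649 FPKM in control (0.97). The peroxidase PER42 (GRMZM2G126261) was at 8.71 FPKM in drought, against 79.7 FPKM in control (-3.05), the glutathione transferase GST39 at 1.48 FPKM in drought, against 15.2 FPKM in control (-2.71), and gst30 at 2.39 FPKM in drought, against 9.03 FPKM in control (-1.57). Of 22 heat shock genes 2 rose and 1 fell. The small heat shock protein gene hsp 17.2 (GRMZM2G158232) was at 24.6 FPKM in drought, against 1.33 FPKM in control (3.46). The chaperonin identifier GRMZM2G458208, named CPN60I, was at 29.9 FPKM in drought, against 6.94 FPKM in control (1.96). A second identifier named CPN60I (GRMZM2G111477), outside the rule, was at 35.0 FPKM in drought and 27.2 FPKM in control (0.35). The most abundant member, hsp70-4, stayed within 1.5-fold, as did HSP90-1, HSP90-2 and Hsp70, which are named outside the rule. Another HSP70 gene, hsp1 (GRMZM5G802801), was lower, at 5.13 FPKM in drought and 9.55 FPKM in control (-0.78), short of 2-fold. The fall was hsp18 (GRMZM2G149647), at 1.06 FPKM in drought, against 3.84 FPKM in control (-1.24).

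Water channels were more often lower than higher. Of 22 compared aquaporins 9 fell and 1 rose, with a median of -0.43. The widest falls were in NIP genes, whose products carry silicon and other small solutes. NIP2-2 (GRMZM2G137108) was at 29.6 FPKM in drought, against 173 FPKM in control (-2.51), Lsi1 (GRMZM2G028325), a silicon channel, at 12.5 FPKM in drought, against 53.3 FPKM in control (-2.01), and NIP3-1 at 3.35 FPKM in drought, against 12.6 FPKM in control (-1.64). Lsi6, a further silicon channel outside the rule, fell by the same measure (-1.33). The plasma membrane aquaporin PIP1-1, the most abundant of the list, was at 393 FPKM in drought and 525 FPKM in control (-0.41). The rise was TIP4-3 (GRMZM2G146627), a tonoplast aquaporin, at 8.59 FPKM in drought, against 0.806 FPKM in control (2.41). Neither PIP2-4 (0.56) nor TIP2-2 (0.52), next in order, reached 2-fold.

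Mineral nutrition leaned to lower values as well. Of 14 compared genes of nitrogen assimilation 5 fell and none rose, with the lowest median of any list of at least 3 compared genes, -0.83. Nitrite reductase, NIR (GRMZM2G079381), was at 49.4 FPKM in drought, against 188 FPKM in control (-1.91), the asparagine synthetase asn2 at 0.661 FPKM in drought, against 3.77 FPKM in control (-1.52), and the glutamine synthetase GLN6 at 4.22 FPKM in drought, against 13.6 FPKM in control (-1.49). The nitrate reductase NNR1 fell too (-1.36), outside the rule, so that both steps from nitrate to ammonium were lower in drought. The glutamine synthetase gln1-3, at 197 FPKM in drought and 121 FPKM in control (0.70), had the highest change of the list, short of 2-fold. Serine acetyltransferase sat1 (GRMZM2G069203), which opens cysteine synthesis, was at 2.03 FPKM in drought, against 24.8 FPKM in control (-3.09).

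Ion transporters followed with 8 falls and 3 rises among 30, against 9.4% and 9.49% of all compared genes, so that the rises lie near the share over all genes. The sodium transporter HKT1 (GRMZM2G047616) was at 2.14 FPKM in drought, against 20.4 FPKM in control (-2.77). The phosphate transporters pht2, at 0.107 FPKM in drought, against 4.49 FPKM in control (-2.31), and pht3, at 0.0593 FPKM in drought, against 2.18 FPKM in control (-1.59), stood low in control. The 3 rises were all potassium transporters of the HAK family, HAK24 at 22.3 FPKM in drought, against 6.38 FPKM in control (1.66), HAK12 at 11.8 FPKM in drought, against 4.85 FPKM in control (1.12) and HAK17 at 2.53 FPKM in drought, against 0.725 FPKM in control (1.04). In root none of 28 of these genes fell and 8 rose, where 7.11% of all compared stem genes measured there fell and 20.7% rose.

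Of 10 compared genes of sucrose synthesis, cleavage and transport 3 fell and none rose. Sucrose phosphate synthase SPS (GRMZM5G875238), which makes sucrose, was at 3.68 FPKM in drought, against 35.1 FPKM in control (-2.95), the phloem sucrose transporter sut1 at 55.96 FPKM in drought, against 157 FPKM in control (-1.47), and the sucrose synthase sus2 at 8.73 FPKM in drought, against 24.9 FPKM in control (-1.41). The cell wall invertase incw1 was at 22.01 FPKM in drought and 11.5 FPKM in control (0.88). The sugar carrier MST1 (GRMZM2G135739) was at 0.321 FPKM in drought, against 9.15 FPKM in control (-2.94). Among 13 starch genes 2 fell, the amylase Amy2, at 37.6 FPKM in drought, against 194 FPKM in control (-2.34), and GBSSIIa, a granule-bound starch synthase, at 24.5 FPKM in drought, against 61.6 FPKM in control (-1.30).

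**Figure D4:**
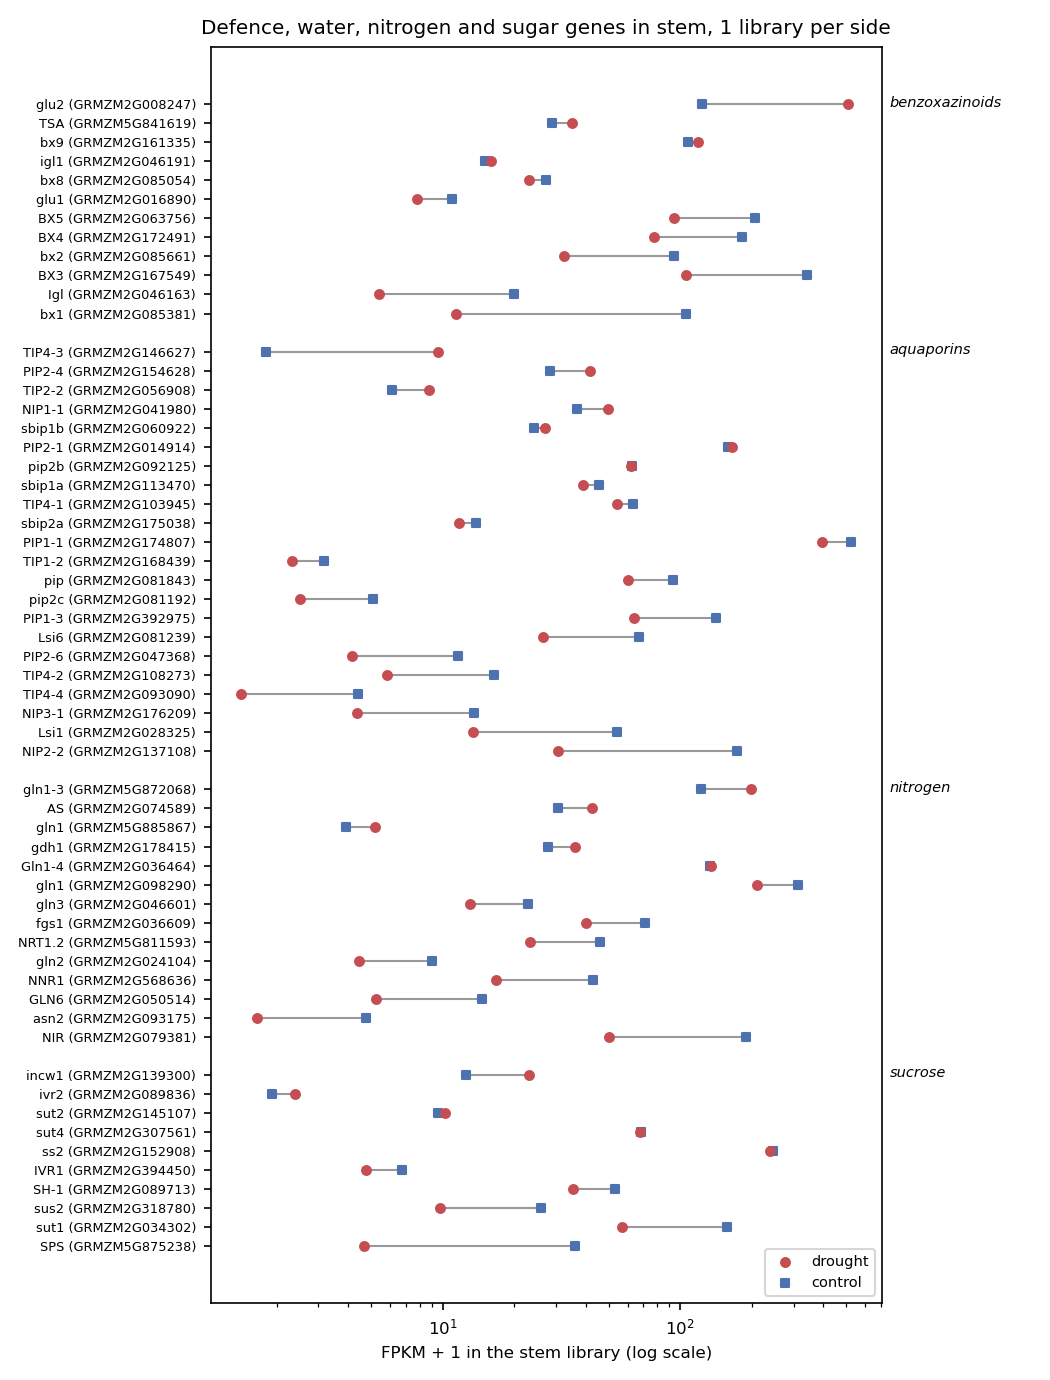
FPKM + 1 (log scale, x axis) of every compared member of the benzoxazinoid, aquaporin, nitrogen and sucrose lists, with red circles for the drought library and blue squares for the control library. The drought point lies to the left for bx1 to BX5, for 9 aquaporins by at least 2-fold and for NIR, NNR1 and SPS, and to the right for glu2 and TIP4-3.

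Genes of the abscisic acid pathway, the hormone tied to water deficit, had no rise in stem with the pseudocount of 1 FPKM, although PP2C28 and vp14 passed 2-fold with one of 0.1 FPKM. Of 41 compared members 6 fell, and the median was -0.12. The largest positive changes were in phosphatases of the PP2C family, which hold the pathway off, with PP2C28 at 15.7 FPKM in drought and 7.75 FPKM in control (0.93) and PP2C2 at 21.7 FPKM in drought and 11.7 FPKM in control (0.83). Next came vp14, which makes the first committed abscisic acid precursor, at 1.59 FPKM in drought and 0.549 FPKM in control (0.74). The falls included other PP2C genes, PP2C23 at 10.1 FPKM in drought, against 52.04 FPKM in control (-2.26), PP2C19 at 11.6 FPKM in drought, against 40.5 FPKM in control (-1.73) and PP2C25 at 6.52 FPKM in drought, against 21.5 FPKM in control (-1.58). The same list gave 5 rises and 2 falls among 41 genes in leaf, and 9 rises and 4 falls among 41 in root. Of all compared stem genes measured there, 6.94% rose and 7.29% fell in leaf, and 20.7% rose and 7.11% fell in root. The list is thus not set apart from all genes by its rises in root.

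Of 6 dehydration protein genes, known as markers of drying tissue, only 3 were compared and none rose. With 9.49% of all compared genes rising, so few genes cannot set the list apart from the rest. The dehydrin gene dehydrin3 was at 9.14 FPKM in drought and 6.49 FPKM in control (0.44), Lea14A at 0.864 FPKM in drought and 1.52 FPKM in control (-0.44), and aba1 (GRMZM2G136910), also named asr1 after abscisic acid, stress and ripening, at 498 FPKM in drought, against 1159.6 FPKM in control (-1.22). Of the 3 compared osmolyte genes, again too few to set against that share, none passed 2-fold. The proline synthesis gene p5cr was at 19.5 FPKM in drought and 20.7 FPKM in control (-0.08), the galactinol synthase gols2 at 79.01 FPKM in drought and 152 FPKM in control (-0.94), and mips2, of inositol synthesis, at 25.1 FPKM in drought and 14.1 FPKM in control (0.79). An enzyme linked to osmoprotectants did rise. AMADH1A (GRMZM2G013214), an aminoaldehyde dehydrogenase of the family that makes glycine betaine, was at 85.7 FPKM in drought, against 6.78 FPKM in control (3.48).

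Few growth hormone genes rose. Over the 4 growth hormone lists 1 of 71 compared genes rose (1.41%) and 7 fell (9.86%), against 9.49% and 9.4% of all compared genes. Of 22 compared cytokinin genes 3 fell and none rose, and all 3 were cytokinin oxidases, the enzymes that break the hormone down. CKX10 was at 1.66 FPKM in drought, against 12.5 FPKM in control (-2.35), CKX12 at 0.660 FPKM in drought, against 6.94 FPKM in control (-2.26) and CKX6 at 2.13 FPKM in drought, against 8.23 FPKM in control (-1.56). Among 37 auxin genes 1 rose and 3 fell. AUX35 rose, at 58.2 FPKM in drought, against 19.3 FPKM in control (1.55), while BIF4, an Aux/IAA repressor needed for normal inflorescence branching, was at 0.458 FPKM in drought, against 4.72 FPKM in control (-1.97) and the response factor ARF18 at 22.4 FPKM in drought, against 61.8 FPKM in control (-1.42). Of 5 ethylene genes 1 fell, the ACC oxidase ACO, at 5.08 FPKM in drought, against 13.3 FPKM in control (-1.23), and none of 7 gibberellin and brassinosteroid genes passed 2-fold with the pseudocount of 1 FPKM.

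Transcription factor families were split. Over 7 such lists 11 of 170 compared genes rose (6.47%) and 26 fell (15.3%), while genes on any list rose in 9.91% and fell in 13.7%, so that an excess of falls was common to the listed genes as a whole. The bZIP family had 2 rises and 7 falls among 31. Both rises were identifiers named bZIP34, and that of GRMZM2G167243 only just reached 2-fold (1.001). The identifier GRMZM5G891783, named bZIP34, was at 98.5 FPKM in drought, against 18.9 FPKM in control (2.32), and bZIP111 at 18.3 FPKM in drought, against 87.9 FPKM in control (-2.20) and bZIP9 at 17.4 FPKM in drought, against 83.5 FPKM in control (-2.20) stood at the other end. HB34 (GRMZM2G002915), a homeobox gene, was at 14.01 FPKM in drought, against 179 FPKM in control (-3.58), the widest fall of 3 among 23 homeobox genes, none of which rose with the pseudocount of 1 FPKM. WRKY104 (GRMZM2G169149) was at 0.765 FPKM in drought, against 16.2 FPKM in control (-3.28), 1 of 2 falls among 15 WRKY genes, again with no rise. In the AP2/ERF family 1 of 25 rose, DBP1 at 5.95 FPKM in drought, against 1.87 FPKM in control (1.28), and 4 fell, led by EREB101 at 7.57 FPKM in drought, against 25.6 FPKM in control (-1.63). The bHLH family had 3 rises and 2 falls among 27, and bHLH116 led the rises, at 13.3 FPKM in drought, against 4.10 FPKM in control (1.48). RADIALIS (GRMZM2G114503), named after a MYB-related regulator of flower symmetry in snapdragon, was at 14.6 FPKM in drought, against 154 FPKM in control (-3.31).

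The MAPK cascade, the pathway the study set out from, passes signals by phosphorylation from MAPKKK to MAPKK to MAPK. Of 52 compared MAPKKKs 2 rose and 4 fell, with a median of -0.04, against 9.49% and 9.4% of all compared genes. The falls lie near that share. The remaining MAPKKK identifiers of the list averaged under 1 FPKM in stem and were not compared, so changes among them are not described. The rises were ZmMAPKKK21, at 2.32 FPKM in drought, against 0.622 FPKM in control (1.03), and ZmMAPKKK19, at 2.85 FPKM in drought, against 0.904 FPKM in control (1.02). Both were low, so that the pseudocount of 1 FPKM understates their changes. On that scale both were close to 2-fold, and under it (0.98 and 0.96) once the libraries were scaled to the same FPKM sum. With a pseudocount of 0.1 FPKM 3 MAPKKKs rose and 4 fell. Next in order was ZmMAPKKK75, at 2.40 FPKM in drought and 0.789 FPKM in control (0.93). ZmMAPKKK73 was at 7.34 FPKM in drought, against 32.6 FPKM in control (-2.01), ZmMAPKKK81 at 10.2 FPKM in drought, against 38.7 FPKM in control (-1.83) and ZmMAPKKK26 at 4.11 FPKM in drought, against 15.7 FPKM in control (-1.71). The most abundant, ZmMAPKKK50, was at 42.2 FPKM in drought and 49.6 FPKM in control (-0.23). Downstream, 8 of 10 MAPKK and MAPK genes lay below 0, and the 2 that fell were ZmMKK10-2 (-1.65) and ZmMPK3-1 (-1.91). Both rose in leaf (1.63 and 1.62) and in root (1.02 and 1.29). Calcium sensors had 2 falls and no rise among 17, the calmodulin CaM1 at 16.2 FPKM in drought, against 42.6 FPKM in control (-1.34) and the kinase CIPK16 at 1.39 FPKM in drought, against 4.74 FPKM in control (-1.27).

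Most genes of surface lipids stayed near their control level. Of 8 compared wax and cuticle genes 2 rose and none fell, with a median of 0.15. CER1 (GRMZM2G066578), named after the alkane-forming enzyme of wax synthesis in Arabidopsis, was at 104 FPKM in drought, against 27.5 FPKM in control (1.88), and the lipid transfer protein LTP3 at 4.67 FPKM in drought, against 0.911 FPKM in control (1.57). The wax gene gl1 was at 127 FPKM in drought and 95.3 FPKM in control (0.41), fdh (GRMZM5G824600) at 71.6 FPKM in drought and 64.1 FPKM in control and AD1 at 5.18 FPKM in drought and 4.60 FPKM in control. The abundant plt1 and plt2 were at 1552 FPKM in drought and 1628 FPKM in control and at 1693 FPKM in drought and 1887 FPKM in control.

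The remaining genes of the named extremes belonged to no listed pathway. Among the rises, phytase2, which frees phosphate from phytate, was at 7.80 FPKM in drought, against 0.357 FPKM in control (2.70). Both named rises listed at 0 in control were low in drought, betl4 (GRMZM2G073290), a gene of the kernel's transfer layer, at 16.3 FPKM and prpl35-1 (GRMZM2G136559), named for a plastid ribosomal protein, at 13.9 FPKM. Among the falls, bss1 (GRMZM2G168552) was at 62.5 FPKM in drought, against 1601 FPKM in control, and its change of -4.66 was the widest named one. The methyltransferase OMT8 (GRMZM2G010731) was at 6.66 FPKM in drought, against 94.4 FPKM in control (-3.64), the cysteine protease named vignain (GRMZM2G070011) at 10.2 FPKM in drought, against 127 FPKM in control (-3.52), and BURP3 (GRMZM2G106980) at 0.329 FPKM in drought, against 16.02 FPKM in control (-3.68). SGR2 (GRMZM2G091837), a stay-green gene of chlorophyll breakdown, was at 0.666 FPKM in drought, against 12.5 FPKM in control (-3.02), and cyp12 (GRMZM2G091588) at 7.91 FPKM in drought, against 111 FPKM in control (-3.65).

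The same extremes gave mixed values in the other tissues. Of the 20 largest named rises in stem, 12 had a mean of at least 1 FPKM in leaf, where 1 rose (chiA) and 6 fell, and 14 did so in root, where 3 rose and 3 fell. Of the 20 largest named falls, 16 were measured in leaf at that level, with 2 rises and 6 falls, and 14 in root, with 5 rises and 3 falls. Of all compared stem genes measured there, 6.94% rose and 7.29% fell in leaf, and 20.7% rose and 7.11% fell in root. PR-5 was at 896 FPKM in drought, against 36.5 FPKM in control in root (4.58) and PER42 at 248 FPKM in drought, against 12.9 FPKM in control (4.16), both opposite to stem. The gene bx1 fell in root as in stem, at 4.35 FPKM in drought, against 51.8 FPKM in control (-3.30), and was at 16.5 FPKM in drought and 13.7 FPKM in control in leaf. The senescence-type protease vignain and RADIALIS fell in leaf too (-3.97 and -3.61).

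**Figure D5:**
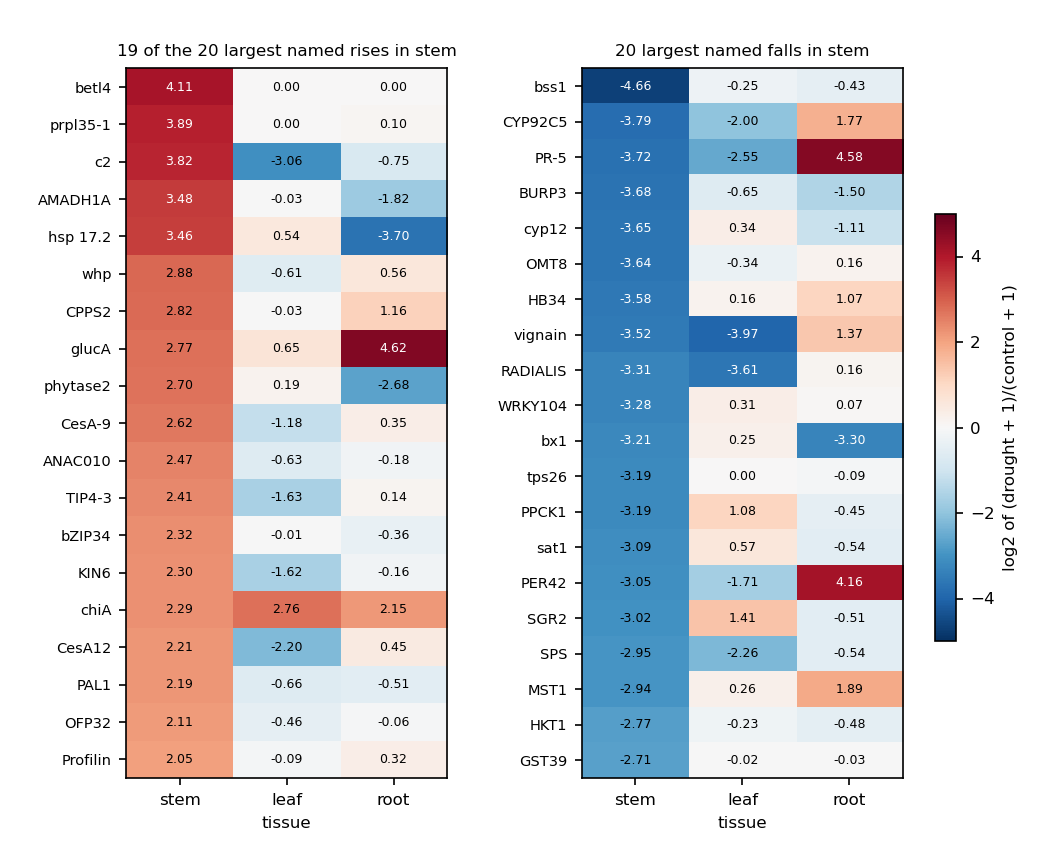
Log2 of (drought + 1)/(control + 1) for 19 of the 20 largest named rises (left panel) and the 20 largest named falls (right panel) in stem, with 1 row per gene and a column each for stem, leaf and root; red is higher and blue lower in drought, on a scale from -5 to 5. The stem columns chose the genes, and among the 19 rises chiA alone exceeds 1 in every tissue.

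Over all stem rises, 1937 had a mean of at least 1 FPKM in leaf, and 9.96% of these rose and 16.8% fell there. In root 27.4% of 1917 rose and 7.72% fell. Of the stem falls, 14.7% of 1911 rose and 17.2% fell in leaf, and 30.03% of 1928 rose and 12.6% fell in root. Stem falls were thus more often rises than falls in root, but so were all compared stem genes measured there (20.7% and 7.11%). The median change of all compared stem genes was 0.29 in root, against 0.06 in stem. Each tissue has its own pair of libraries, and none of these shares was tested.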

How the data were processed

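RNA-seq values of the stem drought and stem control libraries were analysed, with leaf and root beside them. The authors aligned the reads to B73 by TopHat and estimated expression in Cufflinks and Cuffdiff; versions and genome release are not given in the sources used here. The deposited tables hold FPKM values per gene, 1 table per tissue, which were taken as normalized separately. Their ratio columns hold the authors' own comparison and were not used.

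Here log2 of (drought + 1)/(control + 1) was computed with a pseudocount of 1 FPKM over genes averaging 1 FPKM or more in the stem pair, and changes of at least 2-fold were counted. With 1 library per side no test was made. Names came from the RefSeq gene table of assembly Zm-B73-REFERENCE-NAM-5.0, which matched 18777 identifiers (17.1%), and from the paper's MAPK genes. Genes were grouped into 44 lists by symbol, of which 2 list only genes of other tissues. The members and lists were chosen with earlier results of these data known. Named genes were the 20 largest rises and 20 largest falls with a name, the 3 largest of each whatever the name, and of each list the 3 largest rises, 3 largest falls and the highest mean; lists of 8 or fewer may be given in full, and exceptions are marked. Values of 2 genes, 1 of them in the 20 largest named rises, are not reported here, although counts and medians include them. Overlapping genes and near-identical copies were not separated. The alternatives were pseudocounts of 0.1 and 5 FPKM, other filters, 3 scalings, a 4-fold threshold and, chosen after seeing the data, genes above 0 in both libraries. The calculation was tested on simulated data. Python 3.11.15, numpy 2.4.6, pandas 2.3.3 and matplotlib 3.10.9 were used.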

Additional observations from a re-analysis of the deposited data

How the results depend on the processing

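Counts of changed genes followed the settings that set what is counted. With a pseudocount of 5 FPKM 1068 genes rose and 1120 fell, with a filter at a mean of 10 FPKM 1179 rose and 1002 fell, and at a 4-fold threshold 354 rose and 650 fell, against 2428 and 2404. A pseudocount of 0.1 FPKM, no filter, centring, both other scalings and the genes above 0 in both libraries kept either count within 1.5 times, and the share of rises among changed genes lay between 44.2% (same FPKM sum) and 50.2% over the scalings. Of 341 list medians over the settings 340 moved by less than 1.5-fold; that of the root markers, over 2 genes, was -0.88 with a pseudocount of 0.1 FPKM. Of 682 counts of rises or falls in a list 92 moved further, 15 with a pseudocount of 0.1 FPKM, 29 with 5 FPKM and 32 with the filter at 10 FPKM. With 0.1 FPKM, lists with no rise had 2 for abscisic acid, 2 for starch and 1 each for histones, gibberellins and brassinosteroids, homeobox factors and root markers. Of 885 values of named genes 114 moved further, all with another pseudocount. None changed sign after being called, but another pseudocount cannot change a sign. The only other setting tried on the named genes was the scaling to the same FPKM sum. No paired analysis was possible because each side has 1 library and the labels carry no replicate numbers. The counting error of each FPKM value is unknown, and a change seen in 1 pair of libraries cannot be told apart from a difference between the plants sampled.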

Other observations

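Among the 30 genes with the highest FPKM in the stem drought library, 3 named ones changed at least 2-fold, all chosen after their values were seen. The highest named one, pcr1 (GRMZM2G084958), a protochlorophyllide reductase of chlorophyll synthesis, was at 4797 FPKM in drought, against 1674 FPKM in control (log2 change 1.52), while the leaf libraries gave 85.7 FPKM in drought and 61.8 FPKM in control. The lipoxygenase lox1 was at 1759 FPKM in drought, against 828 FPKM in control. The glycine-rich protein gene grp1 (GRMZM2G080603) was at 2271 FPKM in drought, against 6239.7 FPKM in control (-1.46), and it was at 8605 FPKM in drought, against 2854 FPKM in control in root (1.59). The cystatin gene cpi2, a protease inhibitor, was at 3566 FPKM in drought and 2341 FPKM in control (0.61), short of 2-fold.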
